A study of Homo sapiens with 6 samples.

Results

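The poly(ADP-ribose) polymerase (PARP) genes described here are PARP1, PARP2, PARP3, PARP4, PARP8, PARP9, PARP10, PARP12, PARP14 and DTX3L, whose product pairs with that of PARP9. These 10 genes were taken by name from the 23228 genes of the count tables, and all 10 passed the filter on low counts. They were selected on the normalized reads of these same libraries, control against PELP1-KD, so their differences between the groups are given as a description, and the calls counted below are no evidence about them. RNA was sequenced in Hep3B, an established human hepatocellular carcinoma cell line, in 3 control libraries and 3 PELP1-KD libraries. The control cells carried a non-targeted shRNA from lentiviral particles. The PELP1-KD cells carried an shRNA against PELP1, the scaffold protein of the Rix1 complex. The titles name the first of the study's PELP1 shRNAs and the protocol names both, so which was used is uncertain. Both groups shared the RPMI medium, and by the labels the PELP1-KD cells were puromycin-selected stable clones that were then pooled. Nothing in the labels says that the replicates were separate cultures, so the p-values measure the spread between these libraries, which may be technical.

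Reads assigned to genes numbered 26758363 to 34456542 per library, and normalized reads below are estimated reads per gene divided by the relative library size after TMM scaling. PELP1 itself had 4893, 4914 and 5102 normalized reads in control and 4421, 4825 and 4840.2 in PELP1-KD. The second mean was 94.5% of the first (log2 fold change −0.082, SE 0.041, edgeR quasi-likelihood adjusted p = 0.101, where SE is the standard error), so the second group is called knockdown-labelled throughout. With the replicate number as a block PELP1 was called (edgeR adjusted p = 0.0106), as it was without PELP1-KD replicate 3 (0.018). These values are RNA only, and the paper reports reduced PELP1 protein in Hep3B knockdown cells by Western blot. Of 6 hepatocyte-lineage markers, AFP was at 154% of control in the knockdown-labelled libraries, ALB at 65.4%, TTR at 65.6%, SERPINA1 at 72.6%, TF at 79.6% and APOA1 at 91.4%. They summed to between 10030.2 and 10223 RPKM (reads scaled to gene length and library size) in control and between 9016 and 9146 RPKM in the knockdown-labelled libraries. Of 9 markers of leukocytes, endothelium and fibroblasts, CDH5 had 0 reads in all 6 libraries and PTPRC, CD3E, VWF and DCN had at most 5. The summed level of the 3 fibroblast markers was 5.25 to 6.27 RPKM in control and 9.53 to 10.3 RPKM in the knockdown-labelled libraries, most of it from LUM. LUM was at 189% of control and PDGFRB, the other fibroblast marker above a few reads, at 22.7%. The leukocyte sum was 2.65 to 3.57 RPKM and 1.59 to 1.66 RPKM, nearly all of it from CD14, and the endothelial sum was 0.450 to 0.510 RPKM and 0.434 to 0.479 RPKM. The part of these markers in the results was not tested. In bulk RNA, fewer cells of a type and less RNA per cell cannot be told apart.

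PARP enzymes take ADP-ribose from NAD+ and attach it to proteins or nucleic acids, as chains or as single units. PARP1 and PARP2 build chains at DNA breaks, which draws repair factors to the site, and PARP1 is the main target of PARP inhibitor drugs. Most other members attach single units, and several of them (PARP9, PARP10, PARP12 and PARP14, with DTX3L) are known as interferon-stimulated genes that act in antiviral defence. Liver cells respond to interferon, and hepatocytes are a major site of NAD+ synthesis.

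With an adjusted p below 0.05 in edgeR, 8 of the 10 members were called, 6 higher and 2 lower in the knockdown-labelled libraries. Over all 14537 tested genes 53.6% were called, 26.8% higher and 26.8% lower. For the same 8 members the values of the groups did not overlap, as was the case for 58.8% of all tested genes. With at least a 2-fold change required as well, PARP10 and PARP14 remained, both higher, against 7.65% of all tested genes (2.85% higher and 4.79% lower). The median log2 fold change of the 10 members was 0.55, against 0.0044 over all tested genes, and the median absolute log2 fold change was 0.65 against 0.20. Nothing is read from these counts about the members, since the comparison chose them. By role, PARP1 and PARP4 were lower, the groups of PARP2 and PARP3 overlapped, and PARP8, PARP9, PARP10, PARP12, PARP14 and DTX3L were higher.

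**Figure D1:**
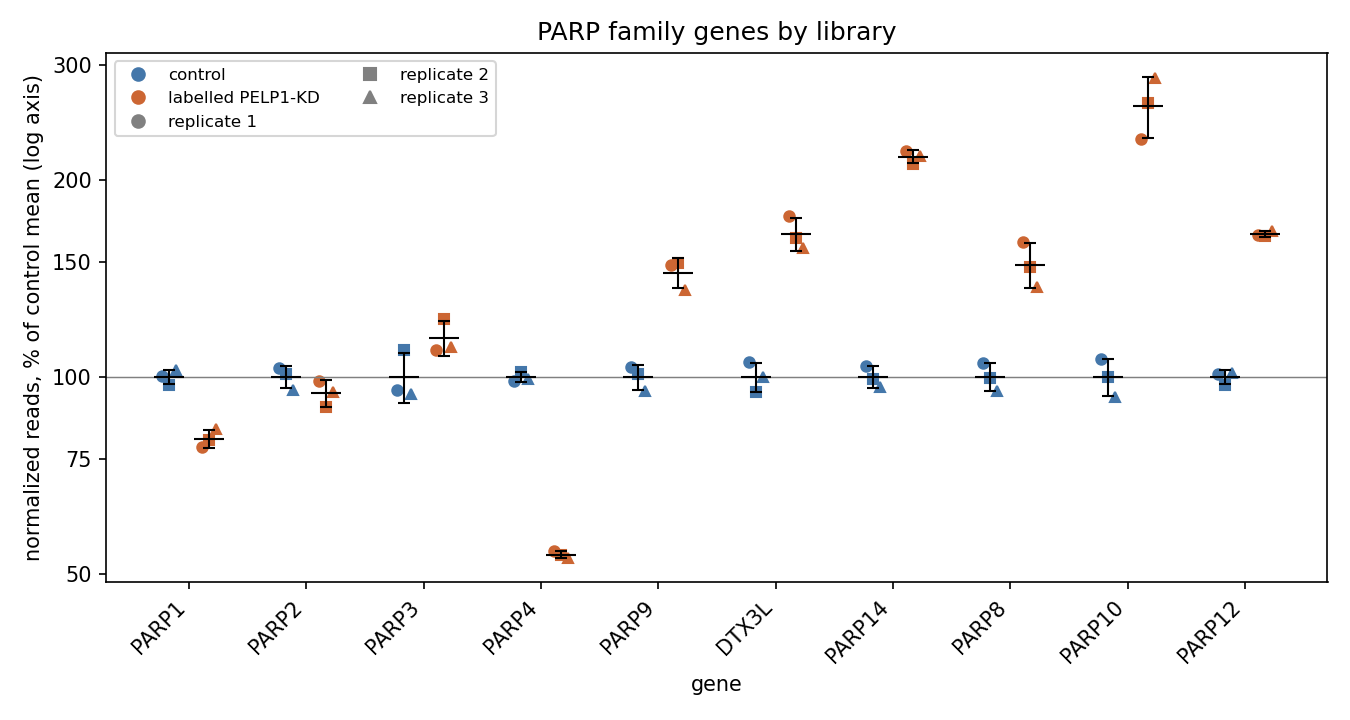
Normalized reads of each PARP family gene in each library, as a percentage of that gene's control mean on a log axis, with blue for control, orange for the knockdown-labelled libraries and a marker shape for each replicate number. Black bars give the mean ± SD of 3 libraries. PARP4 and PARP1 lay below the control values, the groups of PARP2 and PARP3 overlapped, and the other 6 genes lay above.

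PARP1, the main sensor of DNA strand breaks, spans 226548392 to 226595801 of chromosome 1 (hg19, minus strand). It had 14710.3, 14244 and 14996 normalized reads in control and 11431, 11714 and 12191 in the knockdown-labelled libraries. Every control library was above every knockdown-labelled one, with means of 14650.1 ± 379 and 11779 ± 385 (SD, n = 3 each), and the log2 fold change was −0.31 (SE 0.034). PARP2, its closest relative and a partner in repair, lies on chromosome 14 from 20811773 to 20826063 on the plus strand and had 1568, 1532 and 1451 normalized reads in control, against 1497, 1364 and 1437 in the other group. Its groups overlapped (log2 fold change −0.081, SE 0.051). PARP3, which attaches single units at double-strand breaks, lies on chromosome 3 from 51976361 to 51982883 on the plus strand, on the other arm from the PARP9 locus. It was rarer, at 228, 263 and 225 normalized reads in control and 262, 293 and 266 in the knockdown-labelled libraries. Control replicate 2 of PARP3 reached the range of the other group, and the log2 fold change was 0.19 (SE 0.092).

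PARP4 encodes a subunit of the vault particle, a large ribonucleoprotein of the cytoplasm. It lies on chromosome 13 from 24995069 to 25086948 on the minus strand. PARP4 had 1847, 1906 and 1860.1 normalized reads in control and 1015, 998 and 989 in the knockdown-labelled libraries. The groups were far apart against a narrow spread, with means of 1871 ± 31.1 and 1000.3 ± 13.1 (SD, n = 3 each). Its log2 fold change of −0.90 (SE 0.047), or 53.5% of control, was the largest downward difference among the 10 members, and lay just short of 2-fold.

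PARP9, DTX3L and PARP14 lie within 202928 bases of each other on chromosome 3. PARP9 (122246760 to 122283523, minus strand) and DTX3L (122283185 to 122294049, plus strand) are transcribed away from each other, and their annotated first parts overlap by 185 exon bases on opposite strands. The reads were counted by strand, and 0 exon bases of either gene are shared on the same strand. PARP9 binds ADP-ribose through its macrodomains, and DTX3L is the E3 ubiquitin ligase that forms a complex with it. PARP14 (122399672 to 122449687, plus strand) has macrodomains and attaches single ADP-ribose units. PARP15, another gene of this locus and family, starts 2400 bases beyond the end of DTX3L.

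Reference sequence from RefSeq (build GRCh38.p14, not the hg19 of the count tables) was searched around the gene starts, because these members were higher together and are known interferon targets. Each window runs from 250 bases before to 50 bases after a start. The first motif searched was the core of the interferon-stimulated response element, GAAA followed by any pair of bases and GAAA again, on both strands. It stood in at least 1 window of PARP9, DTX3L, PARP14 and PARP12, that is 4 of the 8 members with a window, and in those of 0 of the 7 other family genes with a window. Of all 27305 genes with a window 4.38% held these letters (3.57% of 35116 windows). The members were chosen on their reads, so this count is a description, and PARP9 and DTX3L match at the same bases. The second motif, TTCNNNGAA, stood in windows of 2 of the 8 members (PARP2 and PARP14), of 2 of the 7 other family genes (PARP15 and ZC3HAV1) and of 9.38% of all genes with a window. In PARP14 the motifs do not overlap. PARP4 and PARP10 had no window. The windows of DTX3L, PARP14 and PARP12 are shown with the bases that match the first motif in capitals.
DTX3L: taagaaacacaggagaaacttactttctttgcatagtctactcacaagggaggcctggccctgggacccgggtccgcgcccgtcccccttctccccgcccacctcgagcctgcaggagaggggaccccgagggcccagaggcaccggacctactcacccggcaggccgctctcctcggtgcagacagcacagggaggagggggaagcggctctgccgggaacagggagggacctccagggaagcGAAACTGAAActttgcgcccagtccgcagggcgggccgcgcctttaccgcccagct
PARP14: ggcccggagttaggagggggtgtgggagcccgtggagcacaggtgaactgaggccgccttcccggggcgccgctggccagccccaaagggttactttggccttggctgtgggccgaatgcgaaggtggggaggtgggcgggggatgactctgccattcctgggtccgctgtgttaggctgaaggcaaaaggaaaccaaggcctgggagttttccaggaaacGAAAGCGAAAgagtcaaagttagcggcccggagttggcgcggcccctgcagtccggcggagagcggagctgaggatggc
PARP12: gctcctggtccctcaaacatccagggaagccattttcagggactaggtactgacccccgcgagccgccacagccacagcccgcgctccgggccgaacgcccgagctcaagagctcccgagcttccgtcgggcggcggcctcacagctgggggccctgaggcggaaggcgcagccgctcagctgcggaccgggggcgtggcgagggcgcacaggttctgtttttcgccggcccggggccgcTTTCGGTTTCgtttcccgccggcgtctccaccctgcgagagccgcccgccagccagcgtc

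The DTX3L window is chr3:122564088-122564387 on the plus strand, and its match begins 6 bases before the annotated start. The nearer window of PARP9 (chr3:122564251-122564550, minus strand) shares 137 bases with it, and its match is the same 10 bases, chr3:122564332-122564341, read from the opposite strand. The PARP14 window is chr3:122680589-122680888 on the plus strand, with its match 29 bases before the start. The PARP12 window is chr7:140062902-140063201 on the minus strand, where the match lies on the opposite strand and starts 10 bases before the gene start. A match is only a match of letters.

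PARP14 had 1149.5, 1096 and 1067 normalized reads in control and 2452, 2342 and 2403 in the knockdown-labelled libraries. All 3 PELP1-KD values lay far above the control values, with means of 1104 ± 41.7 and 2399 ± 55.2 (SD, n = 3 each), and the log2 fold change was 1.12 (SE 0.047). DTX3L had 1639, 1477 and 1555 normalized reads in control and 2745, 2544 and 2453 in the other group. Its groups did not overlap either, and the log2 fold change was 0.73 (SE 0.051). PARP9 had 996, 973 and 915 normalized reads in control, against 1426, 1435 and 1306. It showed the smallest difference of these 3 genes (log2 fold change 0.53, SE 0.054). Within a library, the RPKM of DTX3L was 2.24 ± 0.129 times that of PARP9 in control and 2.57 ± 0.108 times in the knockdown-labelled libraries (SD, n = 3 each). The ratio of PARP14 to PARP9 was 1.19 ± 0.0215 and 1.79 ± 0.108. Likeness was ranked by the distance between log2 normalized reads over the 6 libraries, each gene centred on its mean. Among 11768 genes with at least 100 normalized reads on average, PARP9 was number 228 in likeness to DTX3L. In the other direction, DTX3L was number 648 in likeness to PARP9. The distance includes the difference between the groups, on which both genes were chosen, so these ranks are no separate evidence.

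Of the other genes within 500000 bases of these 3 members, 11 were tested, of which 3 rose, 1 fell and 7 were not called. The count that rose is near the 26.8% of all tested genes called higher (26.8% were called lower). The genes next to PARP9 did not pass the test, with log2 fold changes of −0.067 for KPNA1, which encodes an importin (edgeR adjusted p = 0.188), −0.04 for WDR5B (adjusted p = 0.739) and −0.018 for FAM162A (adjusted p = 0.793). On the far side of PARP14, HSPBAP1 rose by 0.40 (SE 0.083, adjusted p = 0.000378), DIRC2 by 0.26 (adjusted p = 0.00275) and LOC100129550 by 0.77 (adjusted p = 7.19e-06). PDIA5, a protein disulfide isomerase gene further along, changed by −0.52 (adjusted p = 2.95e-08). CCDC58 (log2 fold change 0.15, adjusted p = 0.0539) passed the test under 4 of the 13 alternatives in edgeR, namely with the replicate block (adjusted p = 0.00482), with no filter on low counts (0.022), without control replicate 1 (0.0413) and without PELP1-KD replicate 3 (0.00036). CSTA, SEMA5B and SEC22A were not called, with adjusted p of 0.205, 0.913 and 0.957. PARP15 was too rare to test, with 10, 8 and 13 estimated reads in control and 6, 16 and 7 in the knockdown-labelled libraries.

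**Figure D2:**
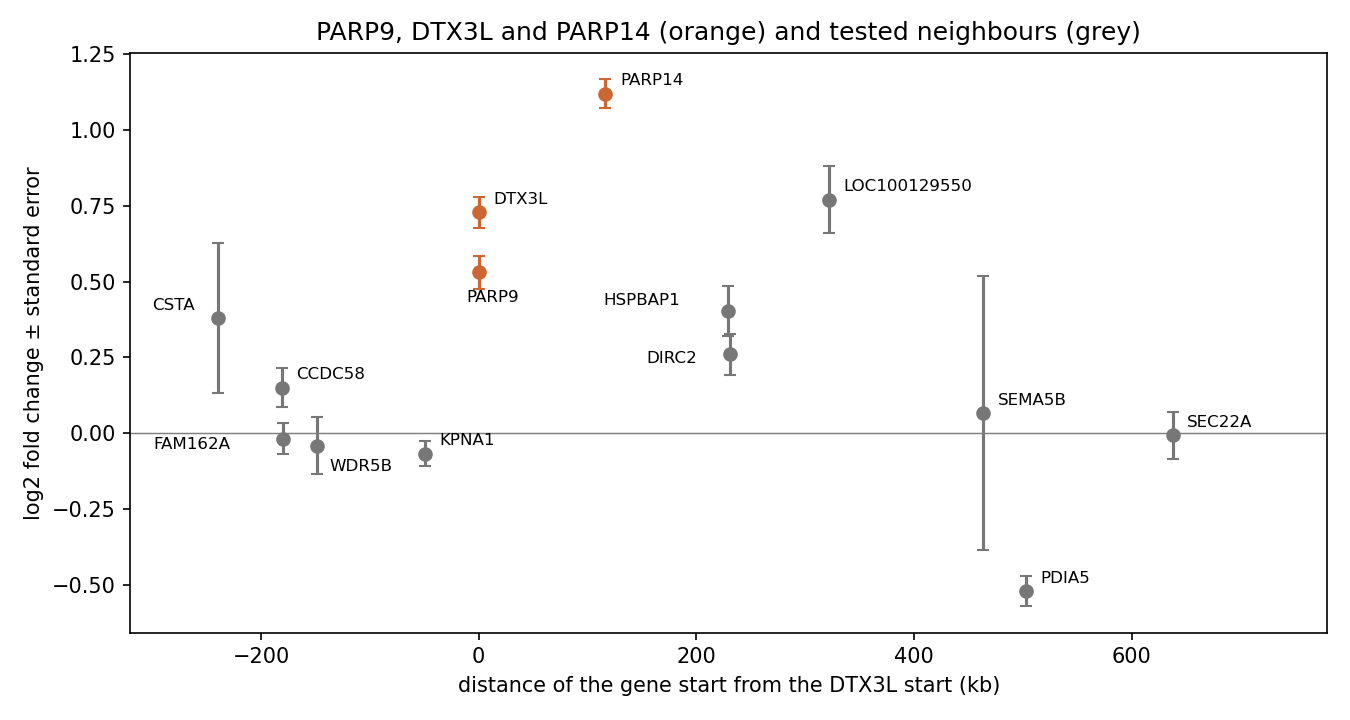
The log2 fold change (knockdown-labelled over control) of PARP9, DTX3L and PARP14 in orange and of the 11 tested genes around them in grey, against the distance of each gene's start from that of DTX3L in kb. Bars are standard errors from edgeR. PARP14 stood highest, and KPNA1, WDR5B and FAM162A, on the left of the pair, lay near 0.

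PARP10 attaches single ADP-ribose units and is known as an interferon-stimulated gene that restrains cell growth when overproduced. It lies on chromosome 8 from 145051320 to 145060635 on the minus strand. PARP10 had 254, 239 and 222 normalized reads in control and 552, 625 and 683 in the knockdown-labelled libraries. Its groups were far apart, although the knockdown-labelled values spread more than for any other member relative to their mean. The means were 238 ± 15.8 and 620.1 ± 65.8 (SD, n = 3 each), a ratio of 2.60, and the log2 fold change was 1.38 (SE 0.087), the largest of the 10. The genes most like PARP10 by the same distance over the 6 libraries were ZNF860 (log2 fold change 1.5), PPP1R14A (1.32) and HERC5 (1.31), the last an interferon-stimulated ligase for ISG15. The distance includes the difference between the groups, on which PARP10 was chosen, so this likeness is no separate evidence.

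PARP12, a zinc finger member that also attaches single units, lies on chromosome 7 from 139723549 to 139763521 on the minus strand. It had 1904, 1831 and 1909.8 normalized reads in control and 3106, 3093 and 3149 in the knockdown-labelled libraries. The values within each group were close together and the groups did not overlap (log2 fold change 0.73, SE 0.041). PARP8, a less studied single-unit enzyme, lies on chromosome 5 from 49961733 to 50142356 on the plus strand. It had 894, 847 and 809.9 normalized reads in control, against 1367, 1252 and 1169.6, and its log2 fold change was 0.57 (SE 0.061). All PELP1-KD values of PARP8 lay above all control values, and none of its 3 windows held either motif.

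Levels between genes were compared as RPKM, reads scaled to exon length and to the TMM library size. In control PARP1 stood at 117 ± 3.03 RPKM (SD, n = 3) and above 95.6% of tested genes. PARP2 followed at 25.6 ± 1.01 RPKM, PARP12 at 15.8 ± 0.37 RPKM and PARP4 at 10.9 ± 0.181 RPKM. DTX3L was at 8.59 ± 0.447 RPKM and PARP14 at 4.56 ± 0.172 RPKM. The lowest were PARP9 (3.84 ± 0.168 RPKM), PARP8 (3.68 ± 0.182 RPKM), PARP3 (3.22 ± 0.28 RPKM) and PARP10 (2.16 ± 0.143 RPKM). Neighbours in this order did not overlap between libraries, except PARP9 with PARP8 and PARP8 with PARP3. In the knockdown-labelled libraries the order was PARP1 (94.1 ± 3.07 RPKM), PARP12 (26.2 ± 0.246), PARP2 (24.2 ± 1.12), DTX3L (14.2 ± 0.824), PARP14 (9.90 ± 0.228), PARP4 (5.82 ± 0.0762), PARP10 (5.61 ± 0.596), PARP9 (5.54 ± 0.287), PARP8 (5.47 ± 0.429) and PARP3 (3.69 ± 0.227), all in RPKM. There PARP4, PARP10, PARP9 and PARP8 overlapped each with the next, and PARP10 moved from the last place to the seventh.

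The summed level of the 10 genes was nearly the same in both groups, at 195 ± 2.96 RPKM in control and 195 ± 2.34 RPKM in the knockdown-labelled libraries (SD, n = 3 each). Its make-up differed. PARP1 held 59.9% ± 0.968 of the sum in control and 48.3% ± 1.15 in the other group, while the 9 other genes together went from 78.3 ± 1.83 to 101 ± 1.79 RPKM. PARP12 held 8.09% ± 0.0815 and 13.4% ± 0.0355, PARP14 2.33% ± 0.0801 and 5.09% ± 0.115, and PARP4 5.58% ± 0.179 and 2.99% ± 0.0665. The level of PARP1 was 4.58 ± 0.272 times that of PARP2 in control and 3.90 ± 0.247 times in the knockdown-labelled libraries, and 10.7 ± 0.434 and 16.2 ± 0.731 times that of PARP4.

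**Figure D3:**
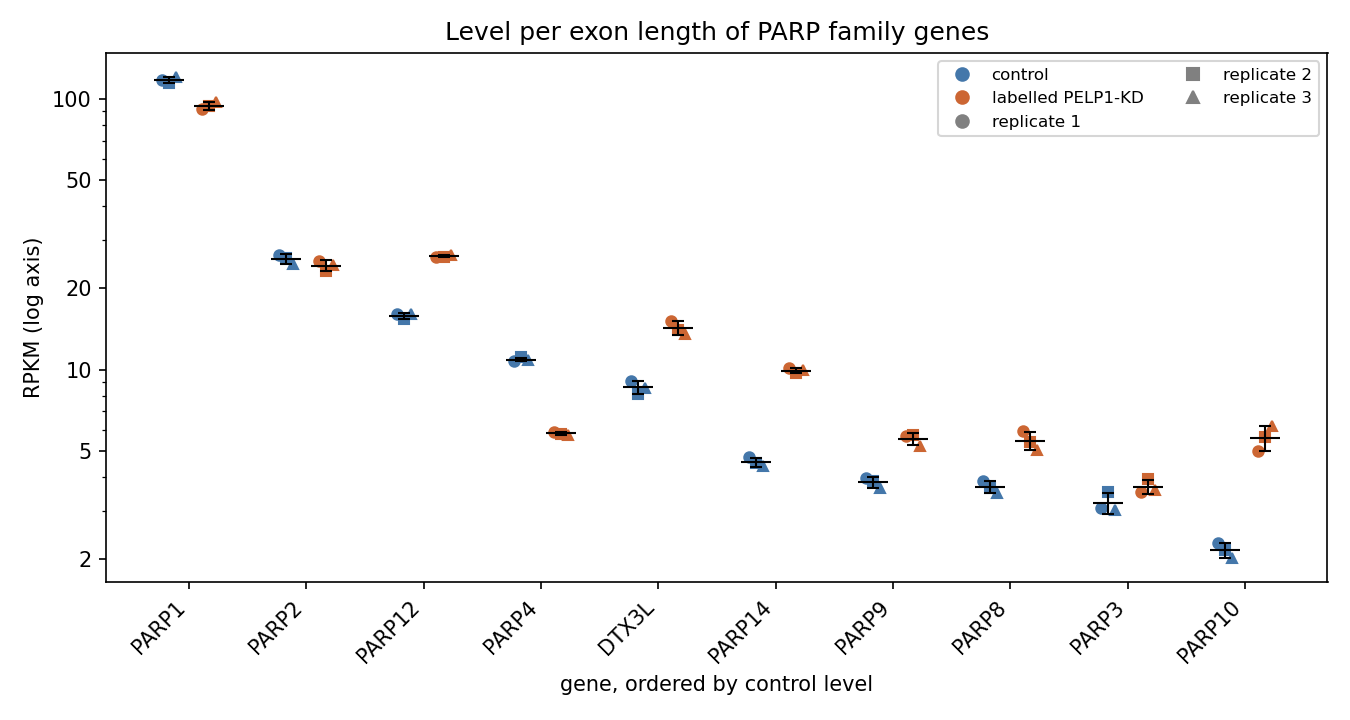
RPKM (log axis) of each PARP family gene in each library, ordered by the control level, with colours, marker shapes and mean ± SD bars for control and for the knockdown-labelled libraries. PARP1 stood far above the rest in both groups, and PARP10 moved from 2.16 to 5.61 RPKM.

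Family genes outside the 10 were tested, although this list too was drawn up with earlier results of these data known. Of 8, 7 passed the filter, of which 4 rose, 2 fell and TNKS2 was not called, and none changed 2-fold. Their median log2 fold change was 0.19, against 0.0044 over all tested genes, of which 26.8% were called higher and 26.8% lower. PARP6, the closest relative of PARP8, rose, with means of 791 ± 49.7 and 1123 ± 43.7 normalized reads (SD, n = 3 each), and the log2 fold change was 0.50 (SE 0.058, edgeR adjusted p = 4.46e-07). ZC3HAV1, the antiviral zinc finger protein also called PARP13, rose by 0.41 (SE 0.055, adjusted p = 3.03e-06). TIPARP, the dioxin-inducible member, rose by 0.40 (SE 0.063, adjusted p = 2.05e-05). Of the tankyrases, which build chains on regulators of telomeres and of WNT signaling, TNKS rose by 0.19 (adjusted p = 0.00182) and TNKS2 had a log2 fold change of 0.031 (95% interval −0.061 to 0.12, adjusted p = 0.58). PARP16, an enzyme of the endoplasmic reticulum membrane, had 295 ± 2.14 and 247 ± 4.75 normalized reads, a log2 fold change of −0.26 (adjusted p = 0.0117), which DESeq2 did not call (adjusted p = 0.0586). PARP11 was rare, at 58.2 ± 4.66 and 39.5 ± 7.80 normalized reads. Its log2 fold change of −0.55 (SE 0.20, adjusted p = 0.0275) was not called by DESeq2 (adjusted p = 0.1), nor without control replicate 2 (0.0969), control replicate 3 (0.0558) or PELP1-KD replicate 2 (0.115).

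**Figure D4:**
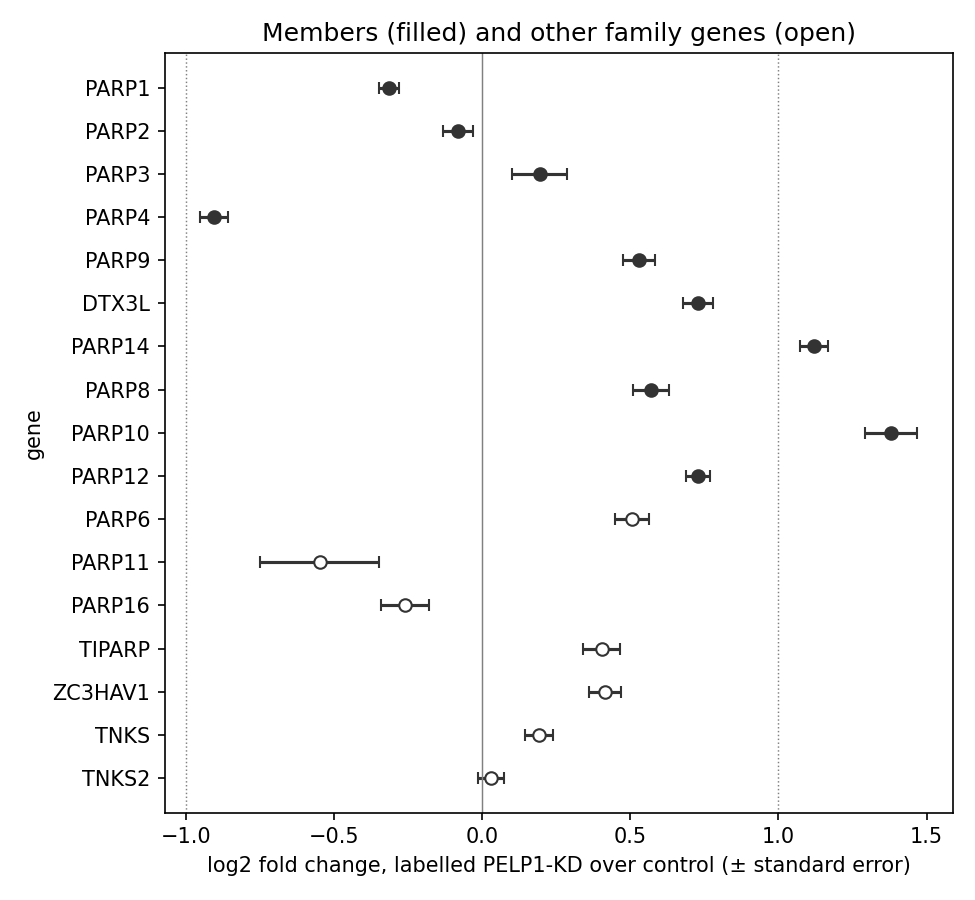
The log2 fold change (knockdown-labelled over control) with its standard error for the 10 members (filled) and the 7 other tested family genes (open), with dotted lines at a 2-fold change. PARP10 and PARP14 lay beyond the upper line and PARP4 lay just inside the lower one.

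Interferon-stimulated genes were set beside the members known to belong to that response. Their list too was drawn up with earlier results of these data known, and it does not hold every interferon-stimulated gene. Of 30 listed genes 22 were tested, of which 18 rose, none fell and 4 were not called, with a median log2 fold change of 0.84, against 26.8% of all tested genes called higher and a median of 0.0044. Not called were USP18 (log2 fold change 0.0036, edgeR adjusted p = 0.972), DDX58 (0.18, 0.0742), IRF7 (0.34, 0.291) and CMPK2 (−0.19, 0.65). IRF7 and CMPK2 were rare, but USP18 had means of 536 and 537 normalized reads. The smallest p-values belonged to OAS3 (log2 fold change 1.38, edgeR adjusted p = 6.36e-16), which makes the activator of RNase L, to the transcription factor gene IRF1 (log2 fold change 1.30, adjusted p = 9.34e-15) and to UBE2L6 (log2 fold change 1.08, adjusted p = 2.2e-14), which encodes the conjugating enzyme of ISG15. Of the interferon-response transcription factor genes, STAT2 and IRF9 were set beside the members. STAT2 rose by 0.44 (adjusted p = 1.08e-07) and IRF9 by 0.62 (adjusted p = 3.24e-06). Side by side, PARP10 (1.38) stood above IRF1, PARP14 (1.12) between IRF1 and IRF9, DTX3L and PARP12 (both 0.73) above IRF9, and PARP9 (0.53) between IRF9 and STAT2, in values whose differences were not tested. The 8 untested genes of the list (IFI44, IFI44L, OAS2, OASL, SAMD9L, BST2, RSAD2 and XAF1) were rare in both groups. EIF2AK2, which encodes the kinase PKR, lost its call in DESeq2 and without control replicate 1 or 3 or PELP1-KD replicate 1 or 2, with adjusted p of up to 0.135.

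Of 8 tested genes that remove ADP-ribose, 2 rose and 3 fell. Over all tested genes 26.8% were called higher and 26.8% lower, so nothing is read from this count about the list. ENPP1, a phosphodiesterase of the cell surface, changed by −0.43 (edgeR adjusted p = 1.29e-07). MACROD1 and C6orf130 (now OARD1), macrodomain enzymes that take off the last unit, changed by −0.58 (adjusted p = 4.79e-06) and −0.48 (adjusted p = 5.04e-05). ADPRHL2, the hydrolase for ADP-ribose on serine, rose by 0.21 (adjusted p = 0.00145), and ADPRH, that for arginine, by 0.38 (adjusted p = 0.00538). PARG, which cuts the chains, was not called (log2 fold change 0.057, 95% interval −0.086 to 0.20, adjusted p = 0.506).

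Of 9 tested genes that make or use NAD+, the substrate of the family, 4 rose and 3 fell. The shares over all tested genes were 26.8% higher and 26.8% lower, and the count is given as a description. NNMT, which spends nicotinamide by methylating it, rose, with means of 181 ± 13.2 and 411 ± 48.0 normalized reads (SD, n = 3 each), by 1.18 (edgeR adjusted p = 4.04e-09). NMNAT3, the mitochondrial form of the last enzyme of synthesis, fell, at 84.9 ± 14.5 and 15.7 ± 2.63 normalized reads, with a log2 fold change of −2.41 (adjusted p = 3.27e-08). The nuclear form NMNAT1 rose by 0.38 (adjusted p = 0.000421) and NAMPT, the rate-limiting enzyme of the salvage route, by 0.19 (adjusted p = 0.00236). NADK, which turns NAD+ into NADP+, and NAPRT1, which starts from nicotinic acid, changed by −0.19 (adjusted p = 0.000718) and −0.19 (adjusted p = 0.00278).

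Of 11 tested partners of PARP1 and PARP2 in repair, 3 rose, 2 fell and 6 were not called, and none changed 2-fold. Among all tested genes 53.6% were called, 26.8% higher and 26.8% lower, so this count does not set the list apart. CHD1L, a chromatin remodeler switched on by ADP-ribose chains, changed by −0.23 (edgeR adjusted p = 0.000185), and C4orf27 (now HPF1), the cofactor that directs PARP1 and PARP2 to serine, rose by 0.24 (adjusted p = 0.000754). H2AFY, the macrodomain histone gene (log2 fold change −0.11, adjusted p = 0.0245), TDP1, which frees DNA ends (log2 fold change 0.17, adjusted p = 0.0318) and the repair scaffold XRCC1 (log2 fold change 0.14, adjusted p = 0.0387) were called, but each lost its call in edgeR fits that left out a library. H2AFY lost it without control replicate 1 or 3 or PELP1-KD replicate 1 or 2 (adjusted p up to 0.163). TDP1 lost it in each such fit except that without PELP1-KD replicate 3 (up to 0.0716), and XRCC1 without control replicate 1 or 2 or PELP1-KD replicate 3 (up to 0.201). DESeq2 called neither TDP1 nor XRCC1 (adjusted p of 0.109 and 0.0763). LIG3, the ligase that binds XRCC1, had a log2 fold change of −0.016 (95% interval −0.12 to 0.085, adjusted p = 0.796).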

How the data were processed

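RNA-seq of Hep3B cells was analysed in 3 control and 3 PELP1-KD libraries, grouped by their treatment labels. The paper's methods name TopHat2 and HTSeq on hg19, and the submitters' processing notes name HISAT2, SAMtools and featureCounts. Per the file headers, featureCounts 1.5.0 counted stranded fragments over the exons of a gene (mapping quality of at least 2), and multiple hits counted fractionally. The deposited values are therefore estimated counts without normalization. The labels disagree about the extraction kit, the library kit (poly(A) or ribosomal depletion) and the read type.

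The estimated counts, of which 10.6% to 13.3% per library were not whole, were rounded. A member's value was at most 0.5 reads from a whole number. Of 23228 genes, 14537 passed filterByExpr. Groups were compared with edgeR 4.0.16 in R 4.3.3 (TMM, robust glmQLFit, glmQLFTest), with Benjamini-Hochberg adjustment over all tested genes at 0.05. The standard error was taken as |log2 fold change| / √F, and its median over all tested genes was 0.063. The alternatives were DESeq2 1.42.0, its size factors or upper-quartile scaling in edgeR, no filter, at least 10 reads in every library, an adjusted p below 0.01, a fit that left out each library, and a replicate block. The method was tested on simulated counts in which far fewer genes changed than were called here, all of them 2-fold. That simulation does not show how the method does with smaller or more numerous changes.

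The members, lists, motifs and tests were chosen with earlier results of these data known. The genes named are all members, the other family genes, STAT2, IRF9, all tested neighbours of the chromosome 3 members, PELP1, the 3 genes most like PARP10, and up to 3 genes with the smallest p in each direction of the other lists. A further gene of this rule is not reported here. LIG3, PARG, EIF2AK2, APTX, DDX58, USP18, IRF7, CMPK2, SPATA13 and CENPJ were added after their values were seen. The deviations from the group mean of libraries with the same replicate number had correlations of 0.336, 0.247 and 0.666 over 6370 genes. Control replicate 2 with PELP1-KD replicate 1 had 0.418, above 0.336 and 0.247, so these values do not settle whether the replicate numbers are pairs. The main fit took no pairs, and the replicate number entered only in the replicate-block alternative. Replicates of a group differed by more than sampling noise (chi-square per degree of freedom from 1.94 to 7.02).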

Additional observations from a re-analysis of the deposited data

How the results depend on the processing

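The counts of members called stayed at 6 or 7 higher and 2 lower under all 13 alternatives, which is no evidence about genes chosen on these values, and none of the 10 members changed sign. Their mean RPKM over the 6 libraries moved by less than the SD within groups in 60 of 80 alternatives, both other scalings of library size among them. In the other 20 a library was left out, which weights the groups unequally. The mean then ranged from 6.65 to 7.80 RPKM for PARP14 (7.23 with all libraries), from 19.9 to 22.1 for PARP12, from 7.81 to 8.87 for PARP4, from 3.42 to 4.26 for PARP10 (outside the SD without PELP1-KD replicate 3) and from 10.7 to 12.1 for DTX3L (outside it without PELP1-KD replicate 1). DESeq2 called 0 other family genes lower and 1 partner gene higher, and an adjusted p below 0.01 gave 0 other family genes lower, 1 partner gene higher and 1 partner gene lower. With each library left out in turn, 1 to 2 other family genes were called lower, 1 to 3 partner genes higher and 1 to 3 lower. With the replicate block, 8828 genes were called in place of 7788, and among the genes named here PELP1, APTX (adjusted p = 0.0167), DDX58 (adjusted p = 0.0486), CCDC58 and the member PARP3 passed the threshold in addition, with no other call changed. Of 1026 values of 79 single genes under the alternatives, 982 kept their direction and side of the threshold, 30 lost the call, 14 gained it and 0 called values changed sign. The causes were not tested.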

Other observations

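Around the other members, all tested genes within 500000 bases that are not members were taken, a choice made with their values known. The counts below are a description, to be set beside the 26.8% of all tested genes called higher and 26.8% called lower. Around PARP4 on chromosome 13 only 2 genes were tested, and both fell in the knockdown-labelled libraries. SPATA13 had 1379 ± 29.4 and 829 ± 30.0 normalized reads (SD, n = 3 each), and its log2 fold change was −0.73 (edgeR adjusted p = 3.49e-10). CENPJ, a centriole gene, had 746 ± 36.1 and 347 ± 22.2 (log2 fold change −1.11, edgeR adjusted p = 1.07e-10). PARP4 lay between them with −0.90. Around PARP10 on chromosome 8, 9 of 32 tested genes were called higher and 11 lower, with a median log2 fold change of −0.085 and a highest value of 0.46, against 1.38 for PARP10. Around PARP1, 2 of 11 tested genes were called higher and 4 lower, with a median of −0.11. Around PARP12, 5 of 9 were called higher and 0 lower, with a median of 0.21 and values from −0.97 to 1.15. Around PARP2, 3 of 11 were called higher and 5 lower (median −0.087), and around PARP3, 9 of 21 higher and 4 lower (median 0.053). Only 1 gene near PARP8 was tested, and it rose by 0.47.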
